A study of Mus musculus with 7 samples.

Results

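The Toll-like receptor 4 (TLR4) pathway is described here through 9 genes of 56854 gene identifiers counted in every library: the receptor Tlr4, its co-receptors Cd14 and Ly96, the adaptors Myd88 and Ticam1, the related receptor Tlr2, and the inhibitors Irak3, Nfkbia and Tnfaip3. They were chosen by gene symbol, because Tenascin C is itself an activator of TLR4; the rule uses no measured value. The data are poly(A) RNA sequencing counts from the whole shoulder joints of 7 mice, 1 library per mouse, all taken 2 weeks after the supraspinatus tendon had been repaired in the left shoulder. The groups were wild type (n = 3) and Tnc-/- (n = 4), the latter lacking Tenascin C, a matrix glycoprotein that is made in healing tendon. The labels used here give neither age, sex nor strain, nor the kind of Tnc allele. As every joint was repaired, the comparison is of genotype after repair and holds no uninjured joint.

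TLR4 sits on the surface of macrophages and other innate immune cells, and also on stromal cells such as fibroblasts. CD14 hands its ligands to a complex of TLR4 and MD-2, the product of Ly96; signals then run through MyD88 to the transcription factor NF-κB, and through TRIF, the product of Ticam1, to interferon regulatory factors. Bacterial lipopolysaccharide is the best known ligand, and in wounded tissue molecules released from cells or laid down in the matrix can also act on it. NF-κB in turn induces several inhibitors of the pathway, among them Nfkbia and Tnfaip3, which close a feedback loop.

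Wild-type libraries held 13464057 to 18503833 gene counts and Tnc-/- libraries 19250322 to 28191101. Levels are CPM, counts per 1e6 gene counts, on TMM-scaled library sizes, and fold changes are Tnc-/- over wild type on the log2 scale. Tnc itself had a wild-type mean of 352 ± 75.5 CPM (SD, n = 3) and a Tnc-/- mean of 41.8 ± 9.26 CPM (SD, n = 4) (log2 fold change -3.08, SE 0.21; edgeR's quasi-likelihood test, Benjamini-Hochberg adjusted p = 2.8e-04). The counts of the genotypes came from different counting runs, and run and genotype cannot be told apart. Wild-type libraries 2 and 3 stood apart from the other 5: 2010 olfactory and vomeronasal receptor genes, which are not known to be used in a joint, summed to 1564 and 1112 unscaled CPM there, to 89.8 in wild-type library 1 and to 33.3 to 41.5 in Tnc-/-. Markers of muscle, tendon fibroblasts, cartilage, bone, macrophages and neutrophils were all present. Scx, Col10a1, Acp5 and Itgam, which mark tendon, growth plate cartilage, osteoclasts and myeloid cells, had 0 counts in all 7 libraries. A count of 0 in all 7 libraries, here and below, is a listed count and not a level. Of protein-coding genes lying wholly inside another listed gene, 99.1% had such a count. Whether these markers lie inside another gene is not given here.

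Of the 9 genes, 8 passed the filter on low counts, and 2 of the 8 differed between genotypes. Tlr4 fell in Tnc-/- to 57.0% of the wild-type mean, and Cd14 rose 1.49-fold. Ly96, Ticam1, Tlr2, Irak3, Nfkbia and Tnfaip3 did not pass the test, and Myd88 had no count in any library. Over all genes, 29.0% of 17791 tested were called at an adjusted p under 0.05, 10.3% higher and 18.7% lower in Tnc-/-, so 2 calls among 8 genes is near the background. The median log2 fold change was 0.19 for the 8 genes and -9.0e-04 for all genes tested. With library totals in place of TMM the all-gene median moved to -0.24, and the calls changed from 1830 higher and 3329 lower to 951 higher and 4541 lower; Tlr4 then stood at -1.06 and Cd14, at 0.34, was not called (edgeR's quasi-likelihood test, Benjamini-Hochberg adjusted p = 0.179).

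**Figure D1:**
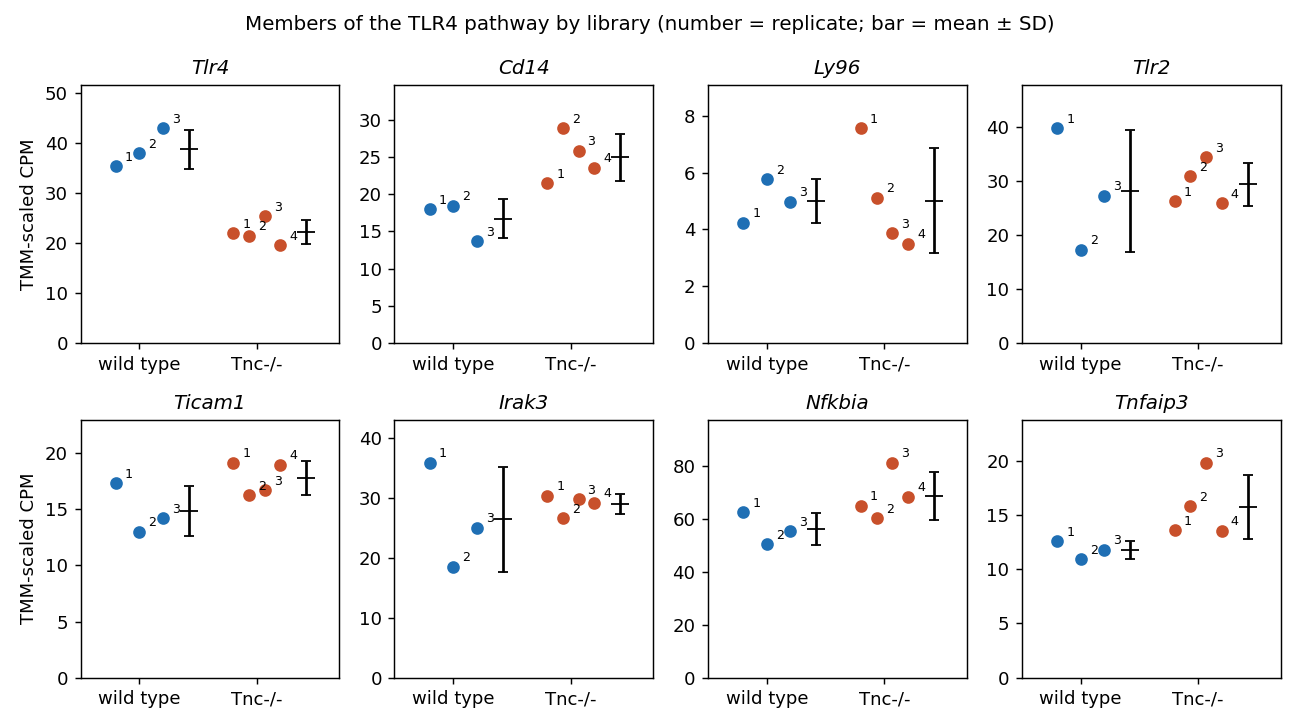
TMM-scaled CPM (y axis, from 0) of the 8 genes with counts in 3 wild-type (blue) and 4 Tnc-/- (orange) libraries; each point is a library labelled with its replicate number, and the bar is the mean ± SD. Tlr4 lies between 35.3 and 42.9 in wild type and between 19.6 and 25.3 in Tnc-/-, while for Cd14 every Tnc-/- library is above every wild-type library.

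Tlr4, the signalling receptor of the pathway, was the member with the clearest difference. Its level was 35.3, 37.9 and 42.9 CPM in the wild-type libraries 1 to 3 and 22.0, 21.4, 25.3 and 19.6 CPM in Tnc-/- libraries 1 to 4. The lowest wild-type library was above the highest Tnc-/- library, and the counts behind these levels were 374 to 707 per library. The means were 38.7 ± 3.91 CPM (SD, n = 3) and 22.1 ± 2.39 CPM (SD, n = 4), giving a log2 fold change of -0.81 (SE 0.15; edgeR's quasi-likelihood test, Benjamini-Hochberg adjusted p = 0.0083). In bulk tissue, fewer cells with the transcript and less transcript per cell cannot be told apart. Tlr4 lay below 0 in all 17 alternative fits, from -1.06 to -0.63, and was called in 15 of them.

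Tlr4 is a long gene, spanning 102.7 kb on chromosome 4 in the GENCODE M21 annotation with 5.41% of that span in exons, and the wild-type libraries with receptor gene counts also had more counts in long genes. Of 1999 tested genes spanning 100 to 300 kb, 894 (44.7%) were called lower in Tnc-/-, with a median log2 fold change of -0.69. The receptor gene counts per kilobase, multiplied by the Tlr4 span, came to 0.616, 10.8 and 7.68 unscaled CPM in the wild-type libraries 1 to 3 and to 0.231 to 0.288 in Tnc-/-. In wild-type library 1, where this background was low, Tlr4 was at 35.3 CPM, above each Tnc-/- library. That background was then subtracted from every gene, and TMM scaling was recalculated on the subtracted counts. Tlr4 was now at 35.1, 33.2 and 41.1 CPM in wild type and 21.3, 20.8, 24.6 and 18.9 CPM in Tnc-/-. The groups again did not overlap. The log2 fold change was then -0.77 (SE 0.15; edgeR's quasi-likelihood test, Benjamini-Hochberg adjusted p = 0.0144). In that fit 12.0% of all genes and 24.1% of the span class were called lower, and the class median was -0.24. With wild-type library 1 as the only wild-type sample, a fit in which the spread comes from the Tnc-/- libraries and the lone library is assumed to vary like them, Tlr4 was at -0.68 (SE 0.19; adjusted p = 0.0597 in the same edgeR test) where the span class had a median of -0.11. There 1.92% of all genes and 3.07% of the span class were called lower. With the receptor gene level as a covariate it was at -0.63 (SE 0.25; adjusted p = 0.20 in the same edgeR test) and the span class at 0.16, with 1.15% of all genes called lower.

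**Figure D2:**
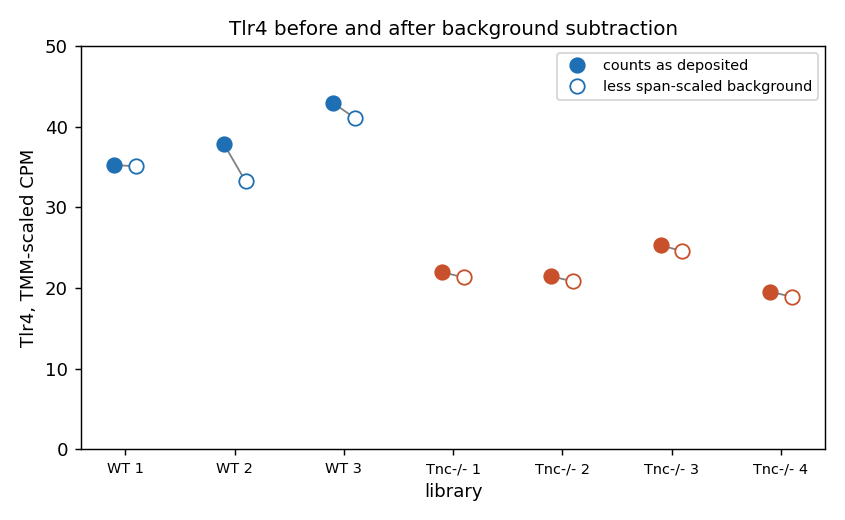
Tlr4 in TMM-scaled CPM (y axis, from 0) for each of the 7 libraries (x axis; blue wild type, orange Tnc-/-), from the counts as deposited (filled) and after subtracting a background scaled to gene span (open). The largest shift is in wild-type library 2, from 37.9 to 33.2, and the lowest open wild-type point is above the highest open Tnc-/- point at 24.6. TMM scaling was recalculated on the subtracted counts, so each shift holds a change of scaling as well as the subtraction.

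Cd14, the co-receptor that passes ligands to the TLR4 complex and is abundant on monocytes and macrophages, went the other way. It was at 18.0, 18.5 and 13.7 CPM in the wild-type libraries 1 to 3 and at 21.5, 28.9, 25.9 and 23.6 CPM in Tnc-/- libraries 1 to 4. With this TMM scaling every Tnc-/- library exceeded every wild-type library, with the lowest value in wild-type library 3 and the highest in Tnc-/- library 2. The means were 16.7 ± 2.64 CPM (SD, n = 3) and 25.0 ± 3.18 CPM (SD, n = 4), giving a log2 fold change of 0.58 (SE 0.19; edgeR's quasi-likelihood test, Benjamini-Hochberg adjusted p = 0.0470). This call was close to the threshold: the value stayed above 0 in all 17 alternatives, from 0.34 to 0.73, but passed in only 3 of them, which were DESeq2, no filter on low counts, and leaving out wild-type library 1. With the span background subtracted and TMM scaling recalculated, Cd14 was at 0.42 (SE 0.18; edgeR's quasi-likelihood test, Benjamini-Hochberg adjusted p = 0.140). In wild-type library 2 its level went from 18.5 to 21.6 CPM, above Tnc-/- library 1 at 21.1 CPM, so the groups overlapped.

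Cell type markers are given beside Cd14, and their part in its rise was not tested. The 13 macrophage markers summed to 1864 to 3540 CPM in wild type and 2898 to 3355 CPM in Tnc-/-, and 0 of 12 tested were called by edgeR, with 0 at an unadjusted p under 0.05 and 0 by DESeq2 or limma voom; Itgam was at 0. The overlap of the sums rests on wild-type library 1 (3540 CPM), since libraries 2 and 3 (2083 and 1864 CPM) were below every Tnc-/- library; without library 1 edgeR called 8 of 12 macrophage markers where it called 64.2% of all genes, and with library totals it called 1. The 14 neutrophil and marrow myeloid markers summed to 2953 to 6189 CPM in wild type and 6844 to 11638 CPM in Tnc-/-, with 10 of 14 called higher and none at 0. That count ran from 1 to 14 with a library left out (1 without wild-type library 3, 2 without wild-type library 2 or Tnc-/- library 1 or 3, 6 without Tnc-/- library 4), and was 3 with limma voom, 1 with Bonferroni adjustment and 0 with the receptor gene covariate or wild-type library 1 alone. The 6 skeletal muscle markers summed to 25601, 19134 and 19524 CPM in wild type and 27147, 40290, 32084 and 28055 CPM in Tnc-/-, with 1 of 6 called and none at 0; per library total these muscle sums overlapped. Tendon fibroblast markers, which belong to a cell type that can carry Tlr4, summed to 20034 to 30759 CPM in wild type and 21716 to 38787 CPM in Tnc-/-, and the groups overlapped; Col1a1 and Col3a1 dominate that sum. Of 7 tested, 1 was called, the tendon transcription factor Mkx, at 9.88, 12.7 and 13.1 CPM in wild type and 6.69, 5.13, 7.0 and 6.33 CPM in Tnc-/- (log2 fold change -0.92, SE 0.28; edgeR's quasi-likelihood test, Benjamini-Hochberg adjusted p = 0.0379), and Scx was at 0. The Mkx call was lost on leaving out any library except wild-type library 1 and under 7 other alternatives, and its part in the Tlr4 difference was not tested.

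Ly96, which encodes the MD-2 subunit that binds lipopolysaccharide within the receptor complex, showed no difference of its means. It was at 4.24, 5.78 and 4.98 CPM in the wild-type libraries 1 to 3 and at 7.58, 5.13, 3.86 and 3.50 CPM in Tnc-/- libraries 1 to 4. Both the highest and the lowest library were Tnc-/-, so the wild-type values lay inside the Tnc-/- range. The means were 5.0 ± 0.771 CPM (SD, n = 3) and 5.02 ± 1.84 CPM (SD, n = 4), with a log2 fold change of 0.01 and an SE of 0.41 (edgeR's quasi-likelihood test, Benjamini-Hochberg adjusted p = 0.992). With 67 to 205 counts per library and this SE, a difference of the size seen for Cd14 was not detectable for Ly96.

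Ratios within a library do not depend on how libraries are scaled, and they show how the receptor parts changed against each other. Tlr4 over Cd14 was 1.96, 2.05 and 3.14 in wild-type libraries 1 to 3 and 1.02, 0.742, 0.978 and 0.83 in Tnc-/- libraries 1 to 4. The lowest wild-type ratio was thus above the highest Tnc-/- ratio, with means of 2.38 ± 0.658 (SD, n = 3) and 0.893 ± 0.130 (SD, n = 4). Tlr4 over Tlr2 was 0.884, 2.19 and 1.57 in wild type and 0.835, 0.694, 0.735 and 0.754 in Tnc-/-; here wild-type library 1 lay just above the Tnc-/- range. Tlr4 over Ly96 was 8.32, 6.55 and 8.62 in wild type and 2.90, 4.18, 6.55 and 5.58 in Tnc-/-. For that ratio wild-type library 2 and Tnc-/- library 3 met at the same rounded value.

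Of the adaptors, Myd88, which carries the signal of most Toll-like receptors to NF-κB, could not be assessed. It had 0 counts in all 7 libraries, which allows up to 3 counts, or 0.106 to 0.223 CPM depending on depth. In GENCODE M21 the gene lies wholly within the span of Slc22a14 and also overlaps Acaa1a. Of 1062 protein-coding genes lying wholly inside another listed gene, 1052 (99.1%) had 0 counts in all 7 libraries, against 2050 of 12191 (16.8%) without any overlap. The share was 99.6% for genes inside a gene on the opposite strand only and 98.2% for those with a containing gene on the same strand. The value of 0 for Myd88 is therefore given as a listed count and not as a level.

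Ticam1 encodes TRIF, the adaptor of the interferon branch. It was at 17.3, 13 and 14.2 CPM in the wild-type libraries 1 to 3 and at 19.2, 16.3, 16.7 and 19.0 CPM in Tnc-/- libraries 1 to 4. Wild-type library 1 overlapped the Tnc-/- range and the other wild-type libraries were below it. The log2 fold change was 0.26 (SE 0.19; edgeR's quasi-likelihood test, Benjamini-Hochberg adjusted p = 0.332). Among 22 further adaptors and kinases of the pathway, 21 were tested, 2 were called higher, none lower, and the median log2 fold change was 0.21. Ube2v1 was at 0. Those called were Irf3, the transcription factor downstream of TRIF, at 32.6 ± 5.38 CPM (SD, n = 3) and 48.0 ± 3.96 CPM (SD, n = 4), and Ikbke, a kinase that phosphorylates such factors, at 15.0 ± 7.75 and 31.8 ± 2.14 CPM. Their log2 fold changes were 0.56 (SE 0.15) and 1.08 (SE 0.30), with adjusted p = 0.0269 and 0.0283 in edgeR's quasi-likelihood test with Benjamini-Hochberg adjustment. Ikbke was at 24.0 CPM in wild-type library 1 and at 10.6 and 10.5 in libraries 2 and 3, all below the lowest Tnc-/- value of 28.6. Its call was kept in 7 of 17 alternatives, and its value ran from 0.04 with the receptor gene covariate to 1.68 without wild-type library 1.

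Tlr2, which senses bacterial lipoproteins and shares Myd88 with Tlr4, showed no call. It was at 39.9, 17.3 and 27.3 CPM in the wild-type libraries 1 to 3 and at 26.3, 30.9, 34.4 and 25.9 CPM in Tnc-/- libraries 1 to 4. The wild-type libraries alone spanned more than the whole Tnc-/- range, with library 1 highest and library 2 lowest of all 7. The means were 28.1 ± 11.3 CPM (SD, n = 3) and 29.4 ± 4.05 CPM (SD, n = 4), giving a log2 fold change of 0.06 (SE 0.27; edgeR's quasi-likelihood test, Benjamini-Hochberg adjusted p = 0.883). With wild-type library 1 as the only wild-type sample it was at -0.45. Of 15 other Toll-like receptors and accessory genes, all were tested, 1 was called higher and none lower, and the median log2 fold change was 0.14. The 1 called was Unc93b1, which escorts nucleic acid sensing receptors to endosomes, with a wild-type mean of 114 ± 30.5 CPM (SD, n = 3) and a Tnc-/- mean of 172 ± 21.1 CPM (SD, n = 4) (log2 fold change 0.59, SE 0.19; edgeR's quasi-likelihood test, Benjamini-Hochberg adjusted p = 0.0482). This call was kept in only 3 of 17 alternatives, over which the value ran from 0.04 to 0.92.

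The inhibitors form the feedback arm of the pathway. Promoter sequences are given for Nfkbia and Tnfaip3, its NF-κB-induced inhibitors, and for Tlr2. Among the member promoters searched, these matched the NF-κB consensus. RefSeq promoters (GRCm38.p6, 250 bases before to 50 after the start, all on the minus strand and read 5′ to 3′ along the gene) were found for 6 of the 9 genes; Tlr4, Cd14 and Ly96 had no entry. Of 8 promoters of these 6 genes, 3 held a match to the consensus on either strand, and 1480 of 32851 promoters (4.505%) of this length held one. Capitals mark the matches, overlapping ones merged, and the rest is in lower case. The Nfkbia promoter is chr12:55492598-55492897, the Tnfaip3 promoter chr10:19015361-19015660 and the Tlr2 promoter chr3:83841559-83841858.
Nfkbia: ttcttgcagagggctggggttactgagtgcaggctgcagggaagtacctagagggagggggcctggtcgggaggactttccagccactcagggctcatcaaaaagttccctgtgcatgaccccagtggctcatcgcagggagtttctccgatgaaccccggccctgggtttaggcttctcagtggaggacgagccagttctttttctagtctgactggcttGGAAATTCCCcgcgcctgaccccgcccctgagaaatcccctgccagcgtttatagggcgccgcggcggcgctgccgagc
Tnfaip3: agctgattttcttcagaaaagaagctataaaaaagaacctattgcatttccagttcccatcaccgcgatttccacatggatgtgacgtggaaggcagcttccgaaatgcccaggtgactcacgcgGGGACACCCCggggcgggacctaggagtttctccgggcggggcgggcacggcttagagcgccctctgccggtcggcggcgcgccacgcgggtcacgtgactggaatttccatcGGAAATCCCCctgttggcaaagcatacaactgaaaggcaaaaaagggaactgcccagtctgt
Tlr2: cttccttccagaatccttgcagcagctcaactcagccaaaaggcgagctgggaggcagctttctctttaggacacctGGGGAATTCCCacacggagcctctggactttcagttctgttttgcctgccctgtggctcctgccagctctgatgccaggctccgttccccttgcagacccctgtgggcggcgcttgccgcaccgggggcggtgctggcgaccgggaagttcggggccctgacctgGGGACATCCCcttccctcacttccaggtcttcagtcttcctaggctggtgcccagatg
The Nfkbia promoter had 1 match, beginning 29 bases before the start, and that of Tnfaip3 had 2, beginning 125 and 12 bases before it. The Tlr2 promoter had 4 matches in 2 places, 3 overlapping ones beginning 173 and 172 bases before the start and another at 8 bases. A match describes the letters of the sequence and does not show binding in these joints.

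Nfkbia encodes IκBα, which holds NF-κB in the cytoplasm. It was at 62.5, 50.4 and 55.2 CPM in the wild-type libraries 1 to 3 and at 64.9, 60.2, 81.1 and 68.3 CPM in Tnc-/- libraries 1 to 4. Only wild-type library 1 reached into the Tnc-/- range, above Tnc-/- library 2, and the highest value was in Tnc-/- library 3. The means were 56.0 ± 6.09 CPM (SD, n = 3) and 68.6 ± 8.96 CPM (SD, n = 4), giving a log2 fold change of 0.29 (SE 0.14; edgeR's quasi-likelihood test, Benjamini-Hochberg adjusted p = 0.154).

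Tnfaip3 encodes A20, a ubiquitin-editing enzyme that shuts off signalling to NF-κB. It was at 12.6, 10.9 and 11.8 CPM in the wild-type libraries 1 to 3 and at 13.6, 15.8, 19.8 and 13.5 CPM in Tnc-/- libraries 1 to 4. All Tnc-/- libraries were above all wild-type libraries, with the highest value again in Tnc-/- library 3, yet the test was not passed (log2 fold change 0.42, SE 0.22; edgeR's quasi-likelihood test, Benjamini-Hochberg adjusted p = 0.185). Tnfaip3 joined Tlr4 and Cd14 as the 3 of 8 genes whose groups did not overlap, against 35.1% of all genes tested. Per library total only Tlr4 of these 3 stayed without overlap; Cd14 was at 18.1, 20.65 and 15.5 CPM in wild type and 20.61 to 26.6 CPM in Tnc-/-, and Tnfaip3 was at 12.6, 12.2 and 13.4 CPM in wild type and 12.4 to 18.4 CPM in Tnc-/-.

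Irak3, a kinase-like inhibitor of the Myd88 branch found mainly in macrophages, resembled Tlr2 in its spread. It was at 35.9, 18.5 and 25.0 CPM in the wild-type libraries 1 to 3 and at 30.4, 26.6, 29.8 and 29.2 CPM in Tnc-/- libraries 1 to 4. Wild-type library 1 was the highest of all and libraries 2 and 3 the lowest, so that the groups overlapped (log2 fold change 0.13, SE 0.22; edgeR's quasi-likelihood test, Benjamini-Hochberg adjusted p = 0.683). Its span overlaps Tmbim4 and Gm47009, so its counts are uncertain, and against wild-type library 1 alone it was at -0.31.

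Of 20 other inhibitors and feedback regulators, all tested, 2 were called higher and 2 lower, 14 had a log2 fold change above 0, and the median was 0.16. Their levels summed to 559, 548 and 590 CPM in wild type and 625, 633, 720 and 626 CPM in Tnc-/-, without overlap on this scaling. Per library total the same sums were 563, 613 and 669 CPM in wild type and 572 to 668 CPM in Tnc-/-, with overlap and with the wild-type mean the higher (615 against 606 CPM). Bcl3, an atypical IκB protein of the nucleus, was at 13.5, 9.77 and 9.05 CPM in wild type and at 16.6, 19.3, 28.8 and 27.7 CPM in Tnc-/- (log2 fold change 1.10, SE 0.27; edgeR's quasi-likelihood test, Benjamini-Hochberg adjusted p = 0.0175). Tnip2, a partner of A20, was at 18.7 ± 0.994 CPM (SD, n = 3) and 28.7 ± 3.26 CPM (SD, n = 4) (log2 fold change 0.62, SE 0.16; adjusted p = 0.0206 in the same edgeR test). Tnip3, another A20 partner, was called lower at -2.57 (SE 0.61; adjusted p = 0.0161 in the same edgeR test), but its wild-type level was 2.09 CPM in library 1 against 13.4 and 7.90 in libraries 2 and 3, and with the receptor gene covariate its value turned to 0.11. Sarm1, the other gene called lower, was at 0.805, 11.2 and 8.99 CPM in wild type, and library 1 was below all 4 Tnc-/- libraries. Of the 5 NF-κB subunit genes edgeR called 0, with 3 at an unadjusted p under 0.05, while DESeq2 called 1 and limma voom 0. With no filter edgeR called 1. Without wild-type library 1 it called 4, in a fit where it called 64.2% of all genes. The median log2 fold change of the 5 was 0.32, from 0.06 for Rel to 0.71 for Nfkb2.

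**Figure D3:**
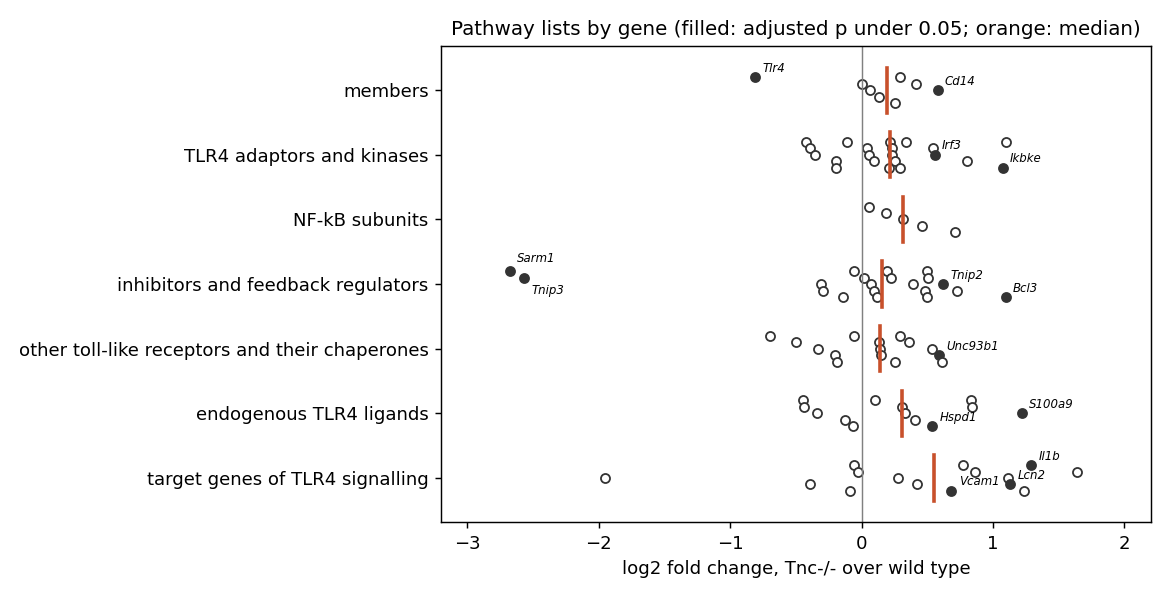
Log2 fold change, Tnc-/- over wild type (x axis), of each tested gene in the members and the 6 pathway lists (y axis); filled points have an adjusted p under 0.05 and orange bars are list medians. Medians run from 0.14 to 0.55; Il23a and Il12b (lower) and Ccl2 (higher) lie beyond the axis and are not drawn, though they count in the medians.

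Among 16 endogenous ligands of TLR4, 13 were tested, 2 were called higher and none lower, and the median log2 fold change was 0.31; Fga, Fgb and Fgg, the fibrinogen chains, were at 0. S100a9, a subunit of the alarmin calprotectin carried by neutrophils, was at 1516, 790 and 811 CPM in the wild-type libraries 1 to 3 and at 3195, 1864, 2421 and 2197 CPM in Tnc-/- libraries 1 to 4 (log2 fold change 1.22, SE 0.30; edgeR's quasi-likelihood test, Benjamini-Hochberg adjusted p = 0.0187). It is also 1 of the 14 neutrophil and marrow myeloid markers above. Hspd1, a mitochondrial chaperone, was at 126 ± 22.9 CPM (SD, n = 3) and 183 ± 15.9 CPM (SD, n = 4) (log2 fold change 0.54, SE 0.15; adjusted p = 0.0320 in the same edgeR test). The matrix ligands Bgn, Dcn, Vcan and Fn1 were at -0.06, -0.44, -0.34 and 0.11 and were not called.

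Of 24 target genes of TLR4 signalling, 18 were tested, 4 were called higher and 2 lower, and the median log2 fold change was 0.55. Cxcl10 and Ifnb1 were at 0 in all 7 libraries. The calls made up 33.3% of those tested, near the 29.0% of all genes, and include Ccl2 and Il23a, which are set aside below. The shares called were 9.5% for adaptors and kinases, 20.0% for inhibitors, 6.7% for other Toll-like receptors and 15.4% for ligands, each under that of all genes. Lcn2, an iron-binding antibacterial protein, was at 339, 138 and 198 CPM in wild type and at 658, 400, 491 and 424 CPM in Tnc-/- (log2 fold change 1.13, SE 0.32; edgeR's quasi-likelihood test, Benjamini-Hochberg adjusted p = 0.0285). Neutrophils also carry Lcn2; its order over the Tnc-/- libraries (1, 3, 4, 2) was that of the neutrophil and marrow myeloid sum, whose part was not tested. The cytokine gene Il1b and the adhesion receptor gene Vcam1 also rose, by 1.29 (SE 0.39) and 0.68 (SE 0.22) on the log2 scale (adjusted p = 0.0375 and 0.0444 in the same edgeR test). Il23a, a cytokine subunit gene, was at 0.912, 3.72 and 2.92 CPM in wild type and at 0, 0, 0.112 and 0 CPM in Tnc-/-, and is counted among those called lower; as it passed the filter on low counts through its wild-type level alone, a difference followed from that, and the call is not used. Il12b, which encodes its partner subunit, was also called lower. Il12b was at 0.483 CPM in wild-type library 1, inside the Tnc-/- range of 0.112 to 0.628, and at 3.72 and 6.07 CPM in libraries 2 and 3. The monocyte chemokine gene Ccl2 was called higher, but its value cannot be read as a difference of genotype: it had 0 counts in all 3 wild-type libraries and 3.51 to 13.8 CPM in Tnc-/-, and in GENCODE M21 it lies wholly inside Gm17268, which only the wild-type files list. Of the identifiers listed for 1 genotype, 125 had a span in GENCODE M21, and among the 174 genes of all lists Ccl2 overlapped 1 of these; identifiers without such a span were not checked. Tnf was at 2.15, 0.133 and 1.21 CPM in wild type and 3.11, 3.84, 3.97 and 3.77 CPM in Tnc-/-, with no call. Il6 was at 0, 2.92 and 3.83 CPM in wild type and 0.209 to 0.952 CPM in Tnc-/-, so that wild-type library 1 was below and libraries 2 and 3 above every Tnc-/- library. With wild-type library 1 as the only wild-type sample, where the spread again comes from Tnc-/- alone, 1 of the 13 genes named above from the pathway lists by rule or with an adjusted p (Ccl2) was called, and with the receptor gene covariate 0 were. In these fits Irf3 was at 0.52 and 0.45 and Tnip2 at 0.53 and 0.48, Bcl3 at 0.77 and 0.57 and Il1b at 0.85 and 0.73, while Ikbke was at 0.40 and 0.04, S100a9 at 0.67 and 0.42, Hspd1 at 0.26 and 0.15, Unc93b1 at 0.20 and 0.04, Lcn2 at 0.54 and 0.22 and Vcam1 at 0.28 and 0.09. Over the 17 alternatives, the call was kept in 3 for Unc93b1, 4 for Vcam1, and 5 each for Irf3, Hspd1 and Il1b. It was kept in 6 for Tnip3, 7 each for Ikbke and Tnip2, 8 each for Bcl3 and Lcn2, and 10 for S100a9. With library totals and with limma voom, Irf3, Hspd1, Unc93b1, Il1b and Vcam1 were not called.

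The 3 wild-type libraries split the members by how far libraries 2 and 3 lay from library 1. The log2 ratio of their mean to library 1 was -0.84 for Tlr2, -0.72 for Irak3, -0.35 for Ticam1, -0.24 for Nfkbia, -0.16 for Cd14 and -0.15 for Tnfaip3, and it was 0.20 for Tlr4 and 0.34 for Ly96. Tlr2 thus differed between wild-type libraries by as much as Tlr4 did between genotypes. The plot of fold changes under 6 fits has Tlr4 left of 0 and Cd14, Nfkbia and Tnfaip3 right of 0 in every fit, and Ly96, Ticam1, Tlr2 and Irak3 on both sides.

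**Figure D4:**
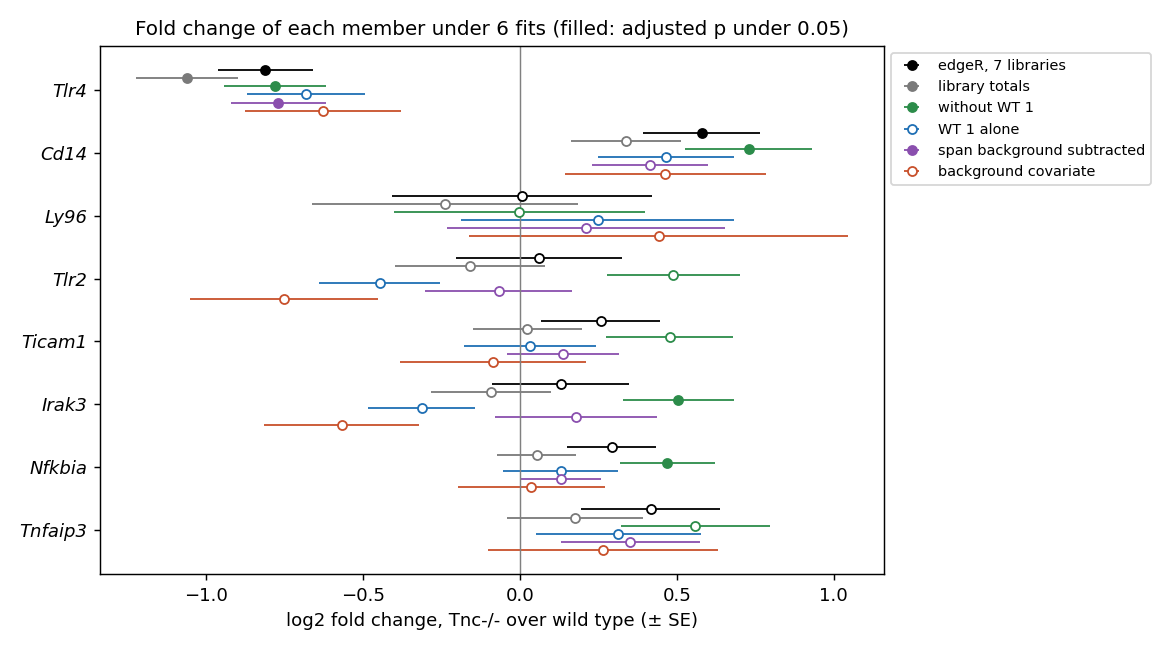
Log2 fold change ± SE, Tnc-/- over wild type (x axis), of each of the 8 genes under 6 fits (colours); filled points have an adjusted p under 0.05. Tlr4 runs from -1.06 to -0.63 over these fits, and Tlr2 from -0.75 to 0.49.

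Levels can be set against each other only per length, and whether reads in introns were counted is not given in the sources used here. Tlr4, Ly96 and Irak3, with 5.41, 4.74 and 6.08% of their spans in exons, are therefore left out of the order. Per kilobase of exon, averaged over the 7 libraries, Nfkbia was at 39.3 CPM per kb, Cd14 at 12.4, Tlr2 at 9.58, Ticam1 at 5.52 and Tnfaip3 at 1.94. These 5 genes have from 40.1% (Ticam1) to all (Cd14) of their spans in exons, so the ranks of close neighbours may depend on that counting. Cd14 and Tlr2 differed by less than the SD of Cd14 over the libraries, which was 2.99 CPM per kb.

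The genes whose levels followed each receptor gene most closely over the 7 libraries are given as a description, among 10734 or 10735 candidate genes whose mean reached 10 CPM. With Tlr4, the Pearson correlations of log2 levels were 0.986 for Ube2w, 0.981 for Sema3d and 0.981 for Atg4c. For Cd14 they were 0.996 for Sh3bgr, 0.996 for Uqcrb and 0.995 for Cyc1, and Sh3bgr was at 139, 148 and 103 CPM in wild type and 181, 275, 221 and 208 CPM in Tnc-/-. For Ly96 they were 0.955 for Abcg2, 0.905 for Blm and 0.90 for Pkhd1l1. The points share library depth and genotype, and values this high are the upper end of many candidates over 7 libraries.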

How the data were processed

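The authors deposited unnormalised counts of reads for each gene, with a file per library. The submitters' processing notes name FastQC 0.11.9, HISAT2 2.2.1, HTSeq 2.0.2, DESeq2 1.38.3 and the builds GRCm39 and mm39, without their roles. Wild-type files listed 56980 identifiers and Tnc-/- files 56941, with 126 and 87 in 1 genotype only; symbols come from the Tnc-/- files. In the Tnc-/- files, 5 rows that name no gene held 30.1 to 32.7% of listed reads and were left out. Unmapped value columns numbered 0.

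Groups follow the labelled genotype. The 56854 identifiers in all files went into edgeR 4.0.16 under R 4.3.3 (filterByExpr, TMM, robust quasi-likelihood F test, genotype as the 1 term, Benjamini-Hochberg adjustment over 17791 genes, threshold 0.05). The SE of a log2 fold change is its size over the square root of F. P-values measure the spread between these samples only, and limits for 0 counts cover counting error only. Spans, exon lengths and overlaps come from GENCODE M21 (GRCm38), which held 91.4% of the identifiers; promoters come from RefSeq. The fitting was tested on simulated counts.

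All 9 members are named; from each pathway list the called genes whose libraries do not overlap are named, at most 3 a list by p, and Il1b, Vcam1, Il12b, Sarm1, Nfkb2, Rel, Tnf, Il6, the matrix ligands and the called cell type markers were added after their values were seen. The members and lists were chosen with earlier results of these data known. Alternatives were DESeq2 1.42.0 (adjusted by Benjamini-Hochberg or by Bonferroni), limma 3.58.1 voom, DESeq2 size factors, library totals, no filter, a receptor gene covariate, leaving out each library, wild-type library 1 alone, and a replicate block. Subtraction of a background scaled to gene span was chosen after seeing the data. The likeness of patterns is Pearson's r of log2(CPM + 0.5).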

Additional observations from a re-analysis of the deposited data

Results flagged for a closer look

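In a test for a library far from the other 3 of its group, applied to 23 values in Tnc-/- (8 genes and 15 list sums), 1 stood out, the summed level of the 20 inhibitors and feedback regulators. It was 625, 633, 720 and 626 CPM in Tnc-/- libraries 1 to 4, so that library 3 took 0.918 of the whole range as its gap, above Dixon's 95% critical value for 4 samples. Chance flags about 1 in 20 groups. Nfkbia and Tnfaip3, which are not in that list, were also highest in library 3, at 81.1 and 19.8 CPM, with gaps of 0.615 and 0.637 of their ranges.

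Reads listed as assigned to more than 1 gene, which no comparison uses, made up 11.4 to 11.6% of the listed reads in the Tnc-/- libraries, or 3267030 to 4807488 reads each. Such a number was not given in the wild-type files used here, so it has no control value.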

How the results depend on the processing

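Tlr4 kept its direction in 17 of 17 alternatives and its call in 15, and stayed called when any library was left out (-0.88 to -0.72); it was not called with the receptor gene covariate (-0.63) or against wild-type library 1 alone (-0.68), a fit whose spread comes from Tnc-/- only. Cd14 kept its direction in 17 and its call in 3. It was not called with Bonferroni adjustment (0.55), voom (0.57), DESeq2 size factors (0.53), library totals (0.34), the covariate (0.46), wild-type library 1 alone (0.47) or the span background subtracted (0.42); leaving out a library gave 0.46 to 0.73, called only without wild-type library 1. The sign of the uncalled Ly96 turned with DESeq2 under either adjustment (-0.019), size factors (-0.036) and library totals (-0.24), and ran from -0.28 to 0.14 with a library left out. Ticam1 turned with the covariate (-0.084), with 0.18 to 0.48 leaving out libraries, the highest without wild-type library 1. Tlr2 turned with library totals (-0.16), the covariate (-0.75), wild-type library 1 alone (-0.45) and the subtraction (-0.067), with -0.19 to 0.49 leaving out libraries. Irak3 turned with library totals (-0.092), the covariate (-0.57) and wild-type library 1 alone (-0.31), with -0.068 to 0.51 leaving out libraries. Without wild-type library 1, Irak3 (0.51) and Nfkbia (0.47; leaving out any library 0.20 to 0.47) passed the test (edgeR, adjusted p = 0.0239 and 0.0150). Tnip3 turned with the covariate (0.11). Calls among the members went from 2 to 1 with Bonferroni adjustment, voom, size factors, library totals and the subtraction, to 0 with the covariate and with wild-type library 1 alone, and to 1 to 4 leaving out libraries. Calls among all genes were 5159, against 9423 with DESeq2, 1890 with Bonferroni adjustment, 973 with voom, 399 with the covariate, 825 with wild-type library 1 alone, 3354 with the subtraction and 2229 to 14113 leaving out libraries, the highest without wild-type library 1. The causes were not tested, beyond the fewer libraries in some fits. Replicate numbers did not pair the samples (correlations of same-numbered libraries -0.0053, 0.102 and -0.0055); with the replicate block 1932 genes and 1 member were called, Tlr4 at -0.76 and Cd14 not (0.61, edgeR adjusted p = 0.143). Of 255 counts of list calls under alternatives, 126 were within 1.5 times the reported count and 129 were not. Ly96 had the fewest counts of the 8 tested members, at 67 to 205 a library.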

Other observations

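Among the 4 Tnc-/- libraries, library 3 held the highest level of 4 of the 8 tested members (Tlr4, Tlr2, Nfkbia and Tnfaip3), of 9 of 18 tested target genes and of 9 of 20 inhibitors and feedback regulators, but of 0 of 13 endogenous ligands, of which 8 were highest in library 4. These counts were made after the values were seen and were not tested. Members of the lists share the depth and scaling of a library.

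Markers of other cell types in the joint stood as follows. The 5 endothelial markers summed to 501 to 606 CPM in wild type and 509 to 571 CPM in Tnc-/-, the 4 adipocyte markers to 189 to 404 and 247 to 416 CPM, the 5 cartilage markers to 2555 to 3429 and 2194 to 4800 CPM, and the 6 bone markers to 1215 to 1689 and 1256 to 1710 CPM. On this scaling the sums overlapped in each, while per library total the endothelial sums were lower in every Tnc-/- library (488 to 525 CPM) than in wild type (567 to 610 CPM). Genes called by edgeR were these (adjusted p under 0.05): Tek (-0.95) lower and Vwf (0.77) higher among endothelial markers, Adipoq (0.63) among adipocyte and Bglap (0.55) among bone markers. Among cartilage markers 0 of 5 were called by edgeR, with 0 at an unadjusted p under 0.05 and 0 by DESeq2 or limma voom. The 4 epidermal markers were low, at sums of 0.665 to 1.82 CPM in wild type and 2.59 to 3.75 CPM in Tnc-/-. These sums did not overlap on this scaling or per library total. Krt10, the 1 marker edgeR tested, had 8 to 25 counts in wild type and 50 to 63 in Tnc-/-. It was not called (log2 fold change 1.42, SE 0.54; edgeR's quasi-likelihood test, Benjamini-Hochberg adjusted p = 0.0776), while DESeq2 called 1 of 2 tested.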
